A study of Mus musculus with 7 samples.

Results

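The genes described here encode the enzymes that turn prohormones into hormones in the secretory granule, together with the proteins that assist or restrain them. The 6 genes, Pcsk1, Pcsk2, Cpe, Scg5, Pcsk1n and Pam, were chosen by name and by their role in this pathway, and all 6 are among the 21899 genes listed by Ensembl identifier in the files. Expression was measured by RNA sequencing in pancreatic islets of second-generation (F2) male mice of the C57BL/6J line. The founder dams received dihydrotestosterone late in pregnancy (androgen exposure, AE, marked HA or hyperandrogenism in the sample labels) or the vehicle alone (control), and their first-generation sons, which were not treated again, were mated with unrelated wild-type females to give the F2 males. The labels place 3 samples in the control-F2 group and 4 in the AE-F2 group. Each group is represented below by a single library, replicate 1 for control-F2 and replicate 4 for AE-F2, and the remaining 5 samples were not analysed here. The age of the F2 males at islet isolation and the number of animals behind a library are not given in the sources used here, and isolated islets were kept in culture medium, for a time that is not given.

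Peptide hormones are made as longer precursors that are cut in the granules of endocrine cells. The convertases PC1/3, encoded by Pcsk1, and PC2, encoded by Pcsk2, cut behind pairs of basic residues, carboxypeptidase E (Cpe) then trims the exposed lysine or arginine, and peptidylglycine alpha-amidating monooxygenase (Pam) turns a C-terminal glycine into an amide. In the islet, β-cells use PC1/3 and PC2 on proinsulin and on the amylin precursor, whereas α-cells use PC2 to release glucagon from proglucagon. The protein 7B2, encoded by Scg5, is the binding partner that PC2 needs to become active, and proSAAS, encoded by Pcsk1n, yields a peptide that inhibits PC1/3.

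The coding sequences of the most abundant substrates show what these enzymes act on, and a stretch of 30 bases around each main cutting site is given from the GENCODE M21 transcripts (GRCm38), read 5′ to 3′, with the codons of the basic pair in capitals and codons counted from the start codon. Both insulin transcripts code for an arginine-arginine pair between the B chain and the C-peptide, at codons 55 and 56, and for a lysine-arginine pair between the C-peptide and the A chain. The second pair lies at codons 86 and 87 in Ins1 and at codons 88 and 89 in Ins2. In Gcg, lysine-arginine pairs at codons 51 and 52 and at codons 82 and 83 enclose glucagon. In Iapp, the amylin gene, a glycine codon stands before the lysine-arginine pair at codons 76 and 77 and codes for the glycine on which Pam acts.
Ins1 B chain to C-peptide: acacccaagtccCGCCGTgaagtggaggac
Ins2 B chain to C-peptide: acacccatgtccCGCCGTgaagtggaggac
Ins1 C-peptide to A chain: gtggcccggcagAAGCGTggcattgtggat
Ins2 C-peptide to A chain: gtggcccagcagAAGCGTggcattgtagat
Gcg before glucagon: atgaatgaagacAAACGCcactcacagggc
Gcg after glucagon: ttgatgaacaccAAGAGGaaccggaacaac
Iapp before amylin: cctcagatggacAAACGGaagtgcaacacg
Iapp after amylin: aatacatatggcAAGAGGaatgcggcaggg
The arginine-arginine pair has the same letters in both insulin genes. Over its whole coding sequence Ins1 had 2 pairs of basic codons, Ins2 had 2, Iapp had 3 and Gcg had 7, and not every pair is a cutting site. In Gcg the pair at codons 69 and 70 lies inside glucagon.

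The deposited values are estimated counts, with a total of 16285888 for control-F2 and of 21278513 for AE-F2, so that the AE-F2 library was 1.31 times as deep. Libraries were scaled to each other by TMM, and levels are given as CPM, counts divided by the scaled library size. A difference between the libraries is given as a percentage or as the log2 of AE-F2 divided by control-F2 (log2 ratio), with a 95% interval for counting error only. PCR copies are not independent molecules, and with 1 library per group there is no estimate of the spread between animals, so no p-value was computed and no difference between the groups has a replicate check. The insulin genes Ins1 and Ins2 made up 17.7% (control-F2) and 17.5% (AE-F2) of all counts, in keeping with the labelled tissue.

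The 6 processing genes were abundant in both libraries and differed little between them. Together they held 1.26% of the counts in control-F2 islets and 1.30% in AE-F2 islets. Pcsk2 and Cpe ranked 13th and 14th of all listed genes by mean CPM, and the least abundant of the 6, Pam, ranked 86th. Cpe, Scg5, Pcsk2 and Pam were 2.38% to 5.61% higher in the AE-F2 library, and Pcsk1 and Pcsk1n were lower, with changes of -3.35% and -5.01%. No member passed a 1.2-fold difference in either direction. Of the 13627 genes that averaged 10 counts or more, 23.4% did (13.9% higher and 9.53% lower), and 3.81% passed 2-fold (3.16% higher and 0.653% lower). Of the 3471 genes that averaged 1000 counts or more, as all 6 members do, 5.21% passed 1.2-fold, 1.41% higher and 3.8% lower. The median log2 ratio of the members was 0.05, against 0.00024 over the 13627 genes and -0.02 over the 3471 abundant ones, and it was 0.019 once trends of the ratio with GC content and length over all genes were removed. The counting interval left out equality for 5 of the 6, of which 3 were higher and 2 lower in AE-F2. With the same trends removed it did so for 3 of the 6, Cpe and Pcsk2 on the higher side and Pcsk1 on the lower. That check was chosen after seeing the data, and its share over all genes is not given here. Without the removal, the interval left out equality for 41.3% of the abundant genes, 16.3% higher and 24.9% lower. Over the 13627 genes it did so for 26.8%, 13.4% in each direction. Such an interval narrows with depth, and the members have between 10865 and 106603 counts in a library. Between 47.8% and 75.9% of the abundant genes had a larger absolute log2 ratio than a given member. Most of those genes have fewer counts than the members and so a wider counting error, and no comparison at matched depth was made.

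**Figure D1:**
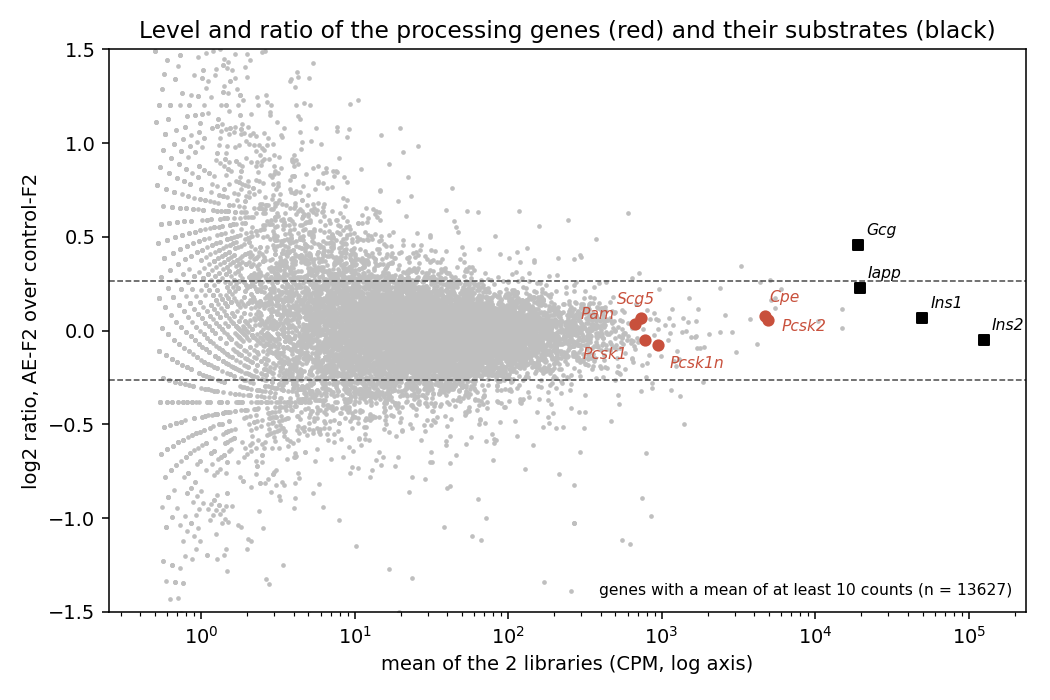
Each grey point is 1 of the 13627 genes that averaged 10 counts or more, placed by its mean level over both libraries (CPM, log axis) and its log2 ratio (AE-F2 over control-F2). The 6 processing genes (red) lie between the dashed lines that mark 1.2-fold, whereas Gcg among the 4 most abundant substrates (black) lies above them, and 271 genes fall outside the plotted range.

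Among the convertases, Pcsk2 was far more abundant than Pcsk1 and the AE-F2 library tilted slightly further towards it. Pcsk2 (ENSMUSG00000027419, chromosome 2 from 143546156 to 143816285 in GRCm38, as all positions here, plus strand) had 78554 counts in control-F2 islets and 106603 in AE-F2 islets, which is 4817 and 5017 CPM. The AE-F2 value was 4.15% higher (counting interval 3.19% to 5.11%). Pcsk1 (ENSMUSG00000021587, chromosome 13 from 75089826 to 75134861, plus strand) had 12833 and 16161 counts, or 787 CPM in control-F2 islets and 761 in AE-F2 islets. The AE-F2 value was the lower one, with a log2 ratio of -0.05 (-0.08 to -0.02), which became -0.10 with the GC content and length trends removed. The ratio of Pcsk1 counts to Pcsk2 counts does not depend on how the libraries are scaled. It was 0.163 in control-F2 islets and 0.152 in AE-F2 islets, a log2 change of -0.11 with a counting interval from -0.14 to -0.07, and -0.16 with those trends removed. Per length, using the mean length of the protein-coding transcripts, there were 0.28 Pcsk1 transcripts for each Pcsk2 transcript in control-F2 islets and 0.26 in AE-F2 islets. The level of this ratio rests on the length taken for Pcsk1, whose coding transcripts average 2753 bases with the longest at 5040, and with the longest transcripts it was 0.153 and 0.142.

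The partner genes of the convertases went in different directions, Scg5 higher and Pcsk1n lower in the AE-F2 library. Scg5 (ENSMUSG00000023236, chromosome 2 from 113776362 to 113829121, minus strand) had 11607 counts in control-F2 islets and 15850 in AE-F2 islets, and its CPM of 712 and 746 gave a value 4.80% higher in AE-F2 (2.31% to 7.35%). That is a log2 ratio of 0.07, of which 0.01 was left with the trends removed, with an interval that included equality. The ratio of Scg5 to Pcsk2 counts was 0.148 in control-F2 islets and 0.149 in AE-F2 islets, and the interval of its log2 change, -0.03 to 0.05, included equality. Pcsk1n (ENSMUSG00000039278, chromosome X from 7919822 to 7924410, plus strand) had 15746 and 19489 counts. Its CPM was 966 in control-F2 islets and 917 in AE-F2 islets, a change of -5.01% (interval -6.99% to -2.99%). As a log2 ratio this is -0.07, and -0.03 with the trends removed, where the interval also included equality. The ratio of Pcsk1n to Pcsk1 counts was 1.23 in control-F2 islets and 1.21 in AE-F2 islets, with a log2 change between -0.07 and 0.02. Neither ratio changed beyond counting error before that removal. With the trends removed the log2 changes became -0.05 for Scg5 to Pcsk2 and 0.07 for Pcsk1n to Pcsk1, and both values lie outside those intervals.

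The enzymes that act after the convertases were both at or above the control-F2 level. Cpe (ENSMUSG00000037852, chromosome 8 from 64592542 to 64693054, minus strand) had 75175 counts in control-F2 islets and 103453 in AE-F2 islets, or 4610 and 4868 CPM. Its AE-F2 value was 5.61% higher (4.62% to 6.61%), the largest increase of the 6. Pam (ENSMUSG00000026335, chromosome 1 from 97795114 to 98095646, minus strand) had 10865 and 14495 counts, or 666 CPM in control-F2 islets and 682 in AE-F2 islets. The interval of its log2 ratio, from -0.002 to 0.07, included equality, so no difference was detectable with these counts. Cpe counts were 0.957 times those of Pcsk2 in control-F2 islets and 0.970 times in AE-F2 islets, a log2 change of 0.02 (0.001 to 0.04), which became 0.0061 (-0.01 to 0.03) with the trends removed. Relative to Pcsk1 they were 5.86 times in control-F2 islets and 6.40 times in AE-F2 islets, a log2 change of 0.13 (0.09 to 0.16). The ratio of Pam to Cpe counts was 0.145 in control-F2 islets and 0.140 in AE-F2 islets, a log2 change of -0.04 (-0.08 to -0.01).

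**Figure D2:**
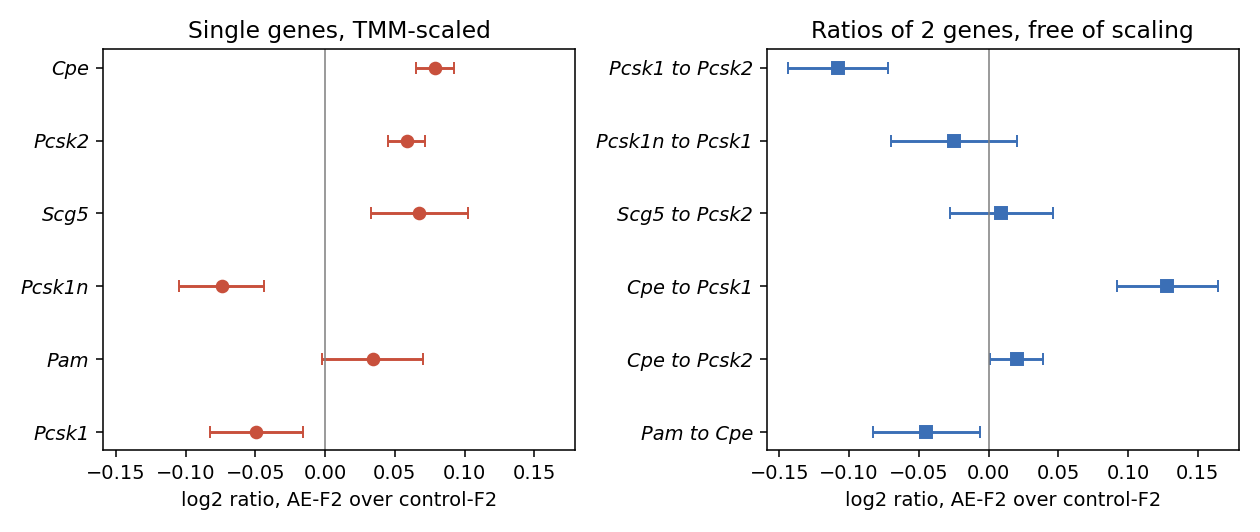
Points are log2 ratios (AE-F2 over control-F2) with 95% intervals for counting error, on the left for single genes after TMM scaling and on the right for ratios of the counts of 2 genes, which need no scaling. Cpe, Pcsk2 and Scg5 lie above 0, Pcsk1 and Pcsk1n lie below it and the interval of Pam includes it, and among the ratios those of Scg5 to Pcsk2 and of Pcsk1n to Pcsk1 include 0.

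The order of the 6 genes by level per length was the same in both libraries. In TPM, where counts are divided by the mean length of the protein-coding transcripts and scaled to the same total in each library, Cpe had 2886 in control-F2 islets and 3003 in AE-F2 islets. Pcsk2 followed with 1352 and 1387 TPM, Scg5 with 781 and 806, and Pcsk1n with 584 and 546. At the foot of the order, Pam had 385 and 389 TPM and Pcsk1 379 and 361. The counting intervals of Pam (378 to 393 TPM) and Pcsk1 (372 to 386 TPM) overlapped in the control-F2 library, so these neighbours did not differ there beyond counting error. In the AE-F2 library they did not overlap, with 382 to 395 TPM for Pam and 355 to 366 for Pcsk1. With the longest coding transcript as the length the order was the same, whereas with merged exons Pcsk1, at 337 and 316 TPM, stood above Pam, at 134 and 133, because merging the exons of Pam gives 11892 bases against a mean transcript of 2292.

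**Figure D3:**
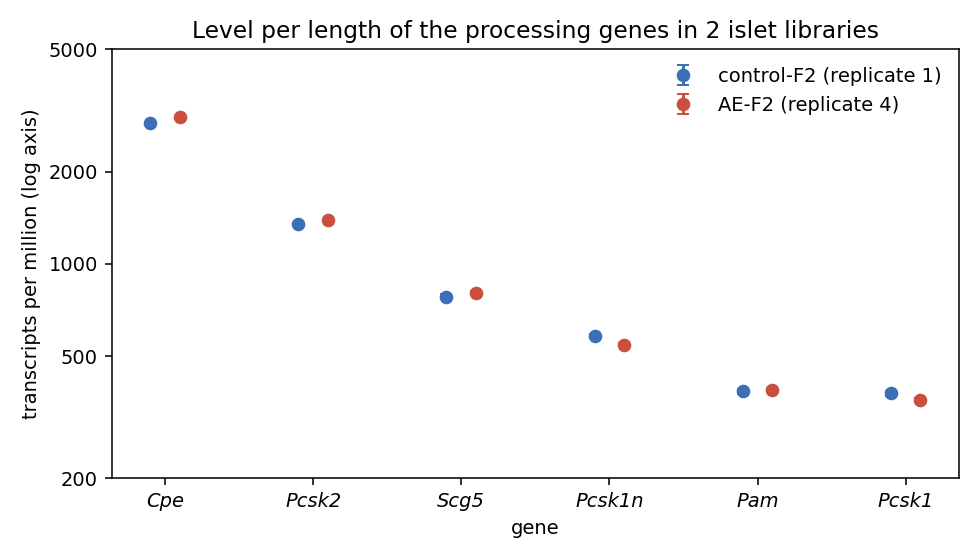
Levels per length in TPM (log axis) are plotted for each of the 6 genes in the control-F2 library (blue) and the AE-F2 library (red), with exact Poisson 95% intervals that are smaller than most symbols. Cpe stands highest at 2886 and 3003 TPM, and Pam and Pcsk1 stand lowest, between 361 and 389 TPM.

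Transcripts of the enzymes were few beside those of their substrates. For every 100 insulin transcripts there were 0.719 Cpe transcripts in control-F2 islets and 0.777 in AE-F2 islets, 0.337 and 0.359 of Pcsk2, and 0.0944 and 0.0933 of Pcsk1. These levels depend on the lengths used, and with the longest coding transcripts those of Cpe became 1.17 and 1.26. The change between the libraries divides by no length. Trends with GC content and length were not removed from these ratios or from those to Gcg below. Relative to Ins1 and Ins2 counts together, Cpe was higher in the AE-F2 library by a log2 ratio of 0.10 (0.08 to 0.11), Scg5 by 0.08 (0.05 to 0.12), Pcsk2 by 0.08 (0.06 to 0.09) and Pam by 0.05 (0.02 to 0.09). Pcsk1n was lower by this measure, at -0.06 (-0.09 to -0.03), and the interval of Pcsk1, -0.07 to 0.001, included equality.

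Gcg, whose product PC2 cuts in α-cells, separated the libraries more than any of the 6 members. Gcg had 16025 CPM in control-F2 islets and 22009 in AE-F2 islets, a log2 ratio of 0.46. Relative to Gcg all 6 members were lower in the AE-F2 library. Pcsk2 counts were 0.301 times those of Gcg in control-F2 islets and 0.228 times in AE-F2 islets, a log2 change of -0.40 (-0.41 to -0.38). For Pcsk1n, the member with the largest such change, it was -0.53 (-0.56 to -0.50), and for Cpe, with the smallest, -0.38 (-0.39 to -0.36). In Iapp, whose product is cut at both ends and amidated, the level was 18110 CPM in control-F2 islets and 21216 in AE-F2 islets, a log2 ratio of 0.23. The other abundant substrates differed less, with log2 ratios of 0.07 for Ins1, -0.05 for Ins2, -0.01 for Sst (somatostatin) and -0.02 for Ppy (pancreatic polypeptide). Ins1 and Ins2 share reads that were divided between them, and their sum had a log2 ratio of -0.02 (177005 and 174912 CPM). Of the 18 prohormone genes listed, 13 passed the minimum of a mean of 10 counts, with a median log2 ratio of 0.07. Past 1.2-fold were Gcg, Npy and Tac1 among the higher and Ghrl among the lower, beside 13.9% higher and 9.53% lower of the 13627 genes. Npy, Tac1 and Ghrl, named after their values were seen, averaged under 100 counts, and the interval of Tac1, -0.03 to 2.17, included equality.

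Markers of islet cell types were summed beside these values. In bulk islets fewer cells of a type and less RNA per cell cannot be told apart. All 12 β-cell markers and all 10 α-cell markers of the lists had counts above 0 in both libraries. Of the 12 β-cell markers 2, Ins1 and Iapp, had higher and 10 had lower levels in AE-F2 islets, and the whole list summed to 206460 CPM for control-F2 and 206563 for AE-F2, a log2 ratio of 0.0007. The 9 other than Ins1, Ins2 and Iapp were all lower, and summed to 11345 CPM in control-F2 islets and 10435 in AE-F2 islets, a log2 ratio of -0.12. The α-cell markers other than Gcg were higher in 7 of 9 cases, and summed to 2557 and 2807 CPM, a log2 ratio of 0.13. With Gcg the α-cell sum was 18583 CPM in control-F2 islets and 24815 in AE-F2 islets. Of the members, Pcsk1 and Pcsk1n were lower and Pcsk2, Cpe, Scg5 and Pam were higher in the AE-F2 library. The interval of Pam included equality, and so did those of Scg5 and Pcsk1n with the trends with GC content and length removed. The part of cell composition in the members' ratios was not tested.

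The libraries also differed in genes outside the endocrine cells and in genes of acute stimulation. The 10 immediate early genes, of which Fos and Jun were the most abundant, were all lower in the AE-F2 library, and their sum was 4155 CPM in control-F2 islets and 2136 in AE-F2 islets. The 7 B cell markers summed to 15.3 CPM in control-F2 islets and 376 in AE-F2 islets. Ighm and Igkc, at 253 and 85.6 CPM, made up most of the AE-F2 sum. Acinar markers were lower in 9 of the 10 that passed the minimum, the exception being Amy2a5 (477 and 736 CPM), and summed to 2583 and 2307 CPM with it and to 2106 and 1572 CPM without it. The summed levels changed 1.22-fold for mesenchymal, 1.23-fold for macrophage, 1.15-fold for duct, 0.994-fold for endothelial, 0.996-fold for δ-cell and 1.02-fold for PP cell markers. The macrophage value rested on Lyz2 (6.87 and 26.9 CPM), without which it was 0.938-fold, and the duct value on Krt7 (247 and 292 CPM), without which it was 1.03-fold. The mesenchymal value was held down by Rgs5 (170 and 180 CPM), without which it was 1.55-fold, and the median log2 ratio of that list was 0.97. These omissions of 1 gene were chosen after seeing the data. The part of these differences in the members' ratios was not tested.

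Other genes of prohormone processing gave a similar picture among abundant genes and wider ratios among sparse ones. Of the 7 other convertases, which act mainly in the constitutive pathway or the Golgi, 0 were past 1.2-fold higher and 2 were past it lower, where 13.9% and 9.53% of the 13627 genes were. The most abundant, Mbtps1 (site-1 protease) and Furin, had log2 ratios of -0.02 (188 and 185 CPM) and 0.05 (116 and 120 CPM). Per length Furin had 56.7 TPM in the control-F2 library against 379 for Pcsk1. Pcsk4, a convertase known from the testis, was among the 2 past 1.2-fold, with 201 counts in control-F2 islets and 186 in AE-F2 islets, a log2 ratio of -0.49 (-0.79 to -0.20). The other was Pcsk5, named after its values were seen, with 13 and 12 counts. Among the carboxypeptidases related to Cpe, the most abundant, Cpd and Cpn1, had log2 ratios of 0.03 and -0.08, each with an interval that included equality. Of the 6 that passed the minimum count, 3 were past 1.2-fold higher, namely Cpxm1, Aebp1 and Cpxm2, which were named after their values were seen and had at most 71 counts in a library. The share past it on that side was 13.9% over the 13627 genes.

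The conditions inside the granule depend on further genes. The proton pump acidifies the granule, which activates the convertases, and 19 of its 24 listed genes passed the minimum count. Their median log2 ratio was 0.03, with 13 higher and 6 lower. Past 1.2-fold were 0 higher and 1 lower, beside 13.9% and 9.53% of the 13627 genes. The lower one was Atp6v1g2, named after its values were seen, with 84 and 81 counts. Its most abundant genes, Atp6v1b2, Atp6v0c, Atp6ap2 and Atp6ap1, had log2 ratios of 0.06, -0.04, 0.04 and 0.05. Pam needs copper and ascorbate, and of the 6 genes of their supply 2 were past 1.2-fold higher, beside 13.9% of the 13627 genes. Slc31a1, the copper importer of the plasma membrane, had 526 counts in control-F2 islets and 894 in AE-F2 islets, or 32.3 and 42.1 CPM, a log2 ratio of 0.38 (0.23 to 0.54). Atox1, a copper chaperone, had 137 and 218 counts and a log2 ratio of 0.29 whose interval, -0.03 to 0.61, included equality. Atp7a, which pumps copper into the secretory pathway, had 565 and 685 counts and a log2 ratio of -0.10 (-0.27 to 0.06).

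**Figure D4:**
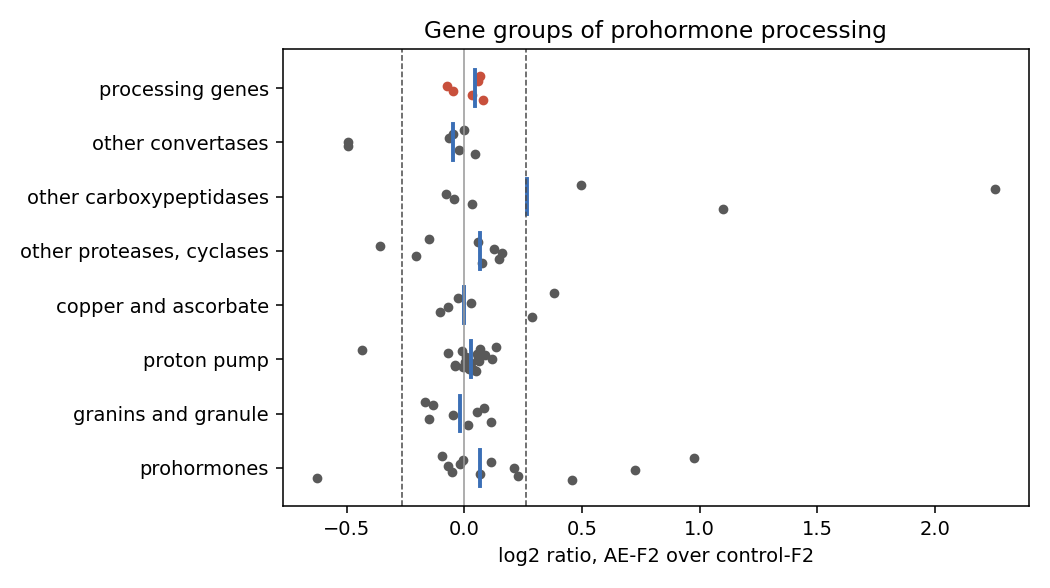
Each point is the log2 ratio (AE-F2 over control-F2) for 1 gene that averaged 10 counts or more, in 8 gene groups, with the group median as a blue bar and 1.2-fold as dashed lines. The 6 processing genes (red) span -0.07 to 0.08, and the points beyond 1.2-fold in the other groups are mostly genes with few counts.

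Genes of granule proteins that accompany the enzymes also stayed within 1.2-fold, with 0 of 8 past it, 4 higher and 4 lower in AE-F2. Past it were 5.21% of the genes that averaged 1000 counts or more, as all of these but Vgf did. Over the 13627 genes it was 23.4%. The counting interval left out equality for the 4 higher genes and for 3 of the lower, beside 41.3% of the genes that averaged 1000 counts or more. Chga and Scg2, granins that are themselves cut by the convertases, had log2 ratios of 0.01 (14809 and 14952 CPM) and 0.05 (10266 and 10660 CPM). Scg3 and Chgb were higher in the AE-F2 library by 0.08 and 0.11 on the log2 scale. The 4 lower genes, named to complete the list after their values were seen, had log2 ratios of -0.05 for Ptprn2, -0.13 for Slc30a8, -0.15 for Ptprn and -0.17 for Vgf, whose interval alone among these 4 included equality. Of the 8 other peptide proteases and cyclases, 1 was past 1.2-fold lower, beside 9.53% of the 13627 genes. This was the glutaminyl cyclase gene Qpct, named after its values were seen, with 61 and 62 counts. Ece1, an endothelin-converting enzyme, was the most abundant of them and had 619 CPM in control-F2 islets and 537 in AE-F2 islets, a log2 ratio of -0.21 (-0.24 to -0.17). That of Ctsb was 0.08, of Nrdc (nardilysin, which cuts at dibasic sites) 0.13 and of Ctsl 0.15, each with an interval above equality.

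For the 6 members the estimated counts were whole numbers in both libraries, unlike those of Ins1 and Ins2, where reads had been divided between genes. The library kit named in the methods does not mark the strand. Exons of Pcsk2 overlap the antisense genes Pcsk2os1 and Pcsk2os2 by 260 and 99 bases in the annotation, those of Pam overlap B230216N24Rik by 188 bases and those of Pcsk1n overlap Eras by 135 bases. Eras had 0 counts in both libraries, and for the other 3 no count was used here, so reads from them could be included in Pcsk2 or Pam. With 1 library per group, likeness of other genes' patterns to these could not be computed.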

How the data were processed

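Islet mRNA was enriched with Oligo (dT) beads and sequenced on an Illumina instrument. Values deposited by the authors are estimated counts for each gene and library, not scaled for depth or length. The submitters' processing notes name Bowtie2, RSEM and DESeq2, whereas the methods of the paper name HISAT2, so the aligner of these files is uncertain. The build and annotation are not given in the sources used here. Files of 2 of the 7 samples were used. Symbols (21806 of 21899 genes), positions and lengths came from GENCODE M21 (GRCm38), with RefSeq synonyms for 2 list genes.

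Estimated counts were rounded. TMM factors came from edgeR 4.0.16 in R 4.3.3 over the 13627 genes that averaged 10 counts or more, and log2 ratios used a pseudocount of 0.5. Intervals on ratios are 95% Clopper-Pearson intervals on how much of a gene's total count came from AE-F2 (scipy 1.17.1), those on levels are exact Poisson intervals, and those on ratios of 2 genes are normal intervals of the log odds ratio. No test was possible with 1 library per group. The ratio method was also run on simulated counts that carried counting error and planted changes. They held no spread between animals, so that run cannot speak to such spread. The members and gene lists were chosen with earlier results of these data known. Genes were named by rule: the members, Ins1, Ins2, Gcg, and of each processing list the 4 most abundant genes by CPM and those past 1.2-fold with a mean of at least 100 counts, not all of which are printed. Of each marker list up to 2 genes were eligible. Alternatives were other scalings (DESeq2 1.42.0 size factors among them), pseudocounts, minimum counts and lengths, removal of trends with GC content and length, and thinning of the AE-F2 library.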

Additional observations from a re-analysis of the deposited data

How the results depend on the processing

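No paired analysis was possible because 1 library per group was analysed and these carry different replicate numbers, and for the same reason no replicate could be left out. Under every alternative tried each member kept its direction, with log2 ratios from 0.05 to 0.08 for Pcsk2, 0.07 to 0.10 for Cpe, 0.01 to 0.08 for Scg5, 0.03 to 0.05 for Pam, -0.10 to -0.03 for Pcsk1 and -0.08 to -0.03 for Pcsk1n, and stayed within 1.2-fold. Values left the counting interval in these cases. With trends with GC content and length removed, Pcsk1 had -0.10, Scg5 0.011 and Pcsk1n -0.027, and the log2 changes of the ratios, an alternative chosen after seeing the data, became -0.16 for Pcsk1 to Pcsk2, 0.071 for Pcsk1n to Pcsk1 and -0.048 for Scg5 to Pcsk2. The intervals then included equality for Scg5, Pcsk1n, Pam and the ratio of Cpe to Pcsk2, and the median of the members went from 0.046 to 0.019. With totals without the 10 most abundant genes, Pcsk2 had 0.075 and Cpe 0.095, and with upper quartile factors 0.076 and 0.096. With longest transcripts the ratio of Pcsk1 to Pcsk2 transcripts was 0.153 (control-F2) and 0.142 (AE-F2), with merged exons 0.231 and 0.214, and merged exons left 4 of 6 members at their position in each library. The numbers of genes past 1.2-fold, 1892 higher and 1298 lower, were 3088 and 2063 with a minimum mean of 1 count, 3513 and 2298 with no filter, and 966 higher with a minimum of 50. Those past 2-fold, 430 and 89, were 1198 and 441, 1623 and 676, and 82 and 22 under the same settings. The cause of these shifts was not tested, other than that a lower minimum admits more genes.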

Other observations

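Sparse relatives of Cpe differed more between the libraries than Cpe itself, as did most mesenchymal markers. Cpxm1 had 11 counts in control-F2 islets and 71 in AE-F2 islets, a log2 ratio of 2.25 (1.38 to 3.37), and Aebp1, a protein of connective tissue, had 19 and 54 counts and a log2 ratio of 1.10 (0.35 to 1.96). Both were chosen here after their values were seen. Of the 8 mesenchymal markers 7 had higher levels in AE-F2 islets, 5 of them past 1.2-fold, against 13.9% of the 13627 genes tested. Their sum was 251 CPM in control-F2 islets and 306 in AE-F2 islets, or 81.1 and 126 CPM without Rgs5, and their part in the values of Cpxm1 and Aebp1 was not tested.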
